A study of Mus musculus with 12 samples.

Results

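The genes described are *Lcn2*, *S100a8*, *S100a9*, *Lyz1*, *Lyz2*, *Pglyrp1*, *Saa3*, *Slpi*, *Chil1* and *Ltf*, which encode secreted antimicrobial and acute-phase proteins, and each was taken from the count table by its gene symbol. They make up 10 of the 55450 genes in the table, and all 10 were abundant enough to be tested. The RNA-seq libraries came from AT2 cells (type II alveolar epithelium), the surfactant-producing cells of the alveolus, of mice with the genotype AhR f/f or, with Cre added, Sftpc-Cre;AhR f/f, all on a C57BL/6 background. The cells were depleted of leukocytes and red cells by antibody selection and panning, and were then cultured on collagen I and exposed to PBS or to cockroach extract (CRE, 50 µg/ml) over 24 h, with 3 libraries in each of the 4 groups. Both genotypes carried the floxed AhR allele, and only the Sftpc-Cre;AhR f/f mice carried Cre recombinase, which is driven by the *Sftpc* promoter and therefore acts in cells that make surfactant protein C. The labels name the former WT and the latter KO, names used here as labels only, and they give no age or sex. The paper gives an age range for its mice and states that controls were matched for age and sex. The labels do not say whether the libraries of a group came from separate mice or cultures, so p-values measure the spread between these libraries, which may be technical.

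These proteins act at the surfaces of airways and alveoli and in the granules of neutrophils. Lipocalin 2 (*Lcn2*) binds bacterial siderophores, lactoferrin (*Ltf*) binds iron, the lysozymes (*Lyz1* and *Lyz2*) cleave bacterial peptidoglycan, and *Pglyrp1* is a peptidoglycan recognition protein. *Slpi* inhibits serine proteases such as neutrophil elastase, *Saa3* is a serum amyloid A protein made outside the liver during the acute phase, *Chil1* is a chitinase-like protein that binds chitin without cleaving it, and *S100a8* and *S100a9* form calprotectin, a calcium- and zinc-binding complex that is abundant in neutrophils. Transcription factors of the NF-kB and C/EBP families are known to act on several of these genes in epithelium exposed to microbes or cytokines. The comparisons address how the genes responded to the allergen extract in AT2 cells and whether the response differed in cells from KO mice.

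The promoters of 6 of the genes are given because the first 4 belong to the genes that rose with CRE and the last 2 to the calprotectin genes, which did not. Each sequence holds the 250 bases before the RefSeq start of the gene on GRCm38.p6, written 5′ to 3′ along the gene, and capitals mark matches to the motifs named after them. The intervals are chr2:164356508-164356757 on the minus strand for *Slpi*, chr7:18884440-18884689 on the plus strand for *Pglyrp1*, chr2:32387740-32387989 on the minus strand for *Lcn2* and chr7:46715677-46715926 on the minus strand for *Saa3*. They are chr3:90668821-90669070 on the plus strand for *S100a8* and chr3:90695722-90695971 on the minus strand for *S100a9*.
Slpi: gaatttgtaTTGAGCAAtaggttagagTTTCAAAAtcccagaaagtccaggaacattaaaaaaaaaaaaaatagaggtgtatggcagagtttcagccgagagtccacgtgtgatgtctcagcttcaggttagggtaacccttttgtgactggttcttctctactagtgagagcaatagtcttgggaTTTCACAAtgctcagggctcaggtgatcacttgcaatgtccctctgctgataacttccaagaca
Pglyrp1: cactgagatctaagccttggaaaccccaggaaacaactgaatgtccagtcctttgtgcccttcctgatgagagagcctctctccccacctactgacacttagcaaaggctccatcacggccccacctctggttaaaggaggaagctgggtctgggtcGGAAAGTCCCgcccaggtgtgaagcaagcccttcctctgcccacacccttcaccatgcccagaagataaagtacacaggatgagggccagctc
Lcn2: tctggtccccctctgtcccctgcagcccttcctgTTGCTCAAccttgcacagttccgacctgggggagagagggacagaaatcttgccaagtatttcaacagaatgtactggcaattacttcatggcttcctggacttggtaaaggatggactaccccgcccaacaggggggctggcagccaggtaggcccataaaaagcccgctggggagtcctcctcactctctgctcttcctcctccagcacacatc
Saa3: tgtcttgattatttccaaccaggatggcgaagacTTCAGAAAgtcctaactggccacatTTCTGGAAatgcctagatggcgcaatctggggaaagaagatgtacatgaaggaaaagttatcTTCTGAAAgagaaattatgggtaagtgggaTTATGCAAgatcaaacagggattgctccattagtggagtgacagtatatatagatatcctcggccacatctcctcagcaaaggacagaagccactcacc
S100a8: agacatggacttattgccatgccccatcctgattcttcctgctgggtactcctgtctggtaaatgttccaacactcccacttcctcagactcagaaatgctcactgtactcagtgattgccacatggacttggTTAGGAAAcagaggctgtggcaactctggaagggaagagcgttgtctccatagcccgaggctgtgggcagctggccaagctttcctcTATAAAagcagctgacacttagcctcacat
S100a9: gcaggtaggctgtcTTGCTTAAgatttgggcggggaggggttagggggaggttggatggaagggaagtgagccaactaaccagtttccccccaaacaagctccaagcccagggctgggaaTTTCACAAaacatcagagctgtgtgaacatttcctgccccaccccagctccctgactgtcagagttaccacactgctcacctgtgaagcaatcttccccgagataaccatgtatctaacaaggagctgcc

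The windows were searched on both strands for 4 motifs, in the 300 bases from 250 before to 50 after the start of all 10 genes, which all had a RefSeq window, and in the 32851 windows of all genes. The letters of an NF-kB site, GGGA and CC with any 4 bases between them, occurred in 2 of the 10 windows and in 20.7% of all windows. In *Pglyrp1* it began 93 bases before the start on the opposite strand, and in *Chil1* it began 179 bases before the start. TTNNGNAA, the letters of a C/EBP site, occurred in 9 of the 10 windows, all but that of *Pglyrp1*, and in 40.7% of all windows, with 4 matches in *Saa3*, 3 in *Slpi* and 1 in *Lcn2*. TNGCGTG, the letters of an AhR response element, occurred in 0 of the 10 windows and in 5.07% of all windows, which says only that these letters are not in these windows. TATAAA occurred in *S100a8*, 30 bases before the start, and in *S100a9* at the start itself, and in 13.6% of all windows. No matches overlapped each other in these 10 windows, and genes that rose with CRE and genes that did not both held the C/EBP letters.

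The total count per library lay between 68878065 and 80935797, so a gene with no count in a library could have up to 3. Levels are given as CPM (counts scaled to the TMM-normalized library size) unless FPKM, the level per length, is named. For the sex of the mice, *Xist* had at most 0.396 CPM and *Ddx3y*, a gene of the Y chromosome, had 45.7 to 78.4 CPM in the 12 libraries, as in male cells. The targeted gene *Ahr* had 42.9, 43.8 and 45.1 CPM in the WT libraries with PBS and 49.6, 40.2 and 45.7 CPM in the libraries labelled KO. With CRE it had 56.2, 50.5 and 50.1 CPM in the former and 51.5, 37.7 and 49.5 CPM in the latter. *Ahr* counts over the whole gene were therefore not lower in the libraries labelled KO beyond the spread (log2 fold change 0.04 ± 0.12 (SE) with PBS and -0.18 ± 0.12 with CRE, edgeR adjusted p = 0.990 and 0.964). The paper reports AhR deletion in AT2 cells by staining lung tissue for AhR and Sftpc together. It also reports AhR deficiency in isolated AT2 cells by RT-PCR. The sources do not say which exons are floxed, and a count over all exons checks a partial deletion only weakly. *Cyp1b1* and *Ahrr*, which are known to be induced through AhR and were added after genotype values were seen, ran in the direction of the labels. *Cyp1b1* had 344 to 404 CPM in WT and 31.8 to 59.0 CPM in KO libraries with PBS, and 349 to 465 CPM and 33.8 to 63.9 CPM with CRE (log2 fold change -3.10 ± 0.27 (SE) and -3.17 ± 0.27, edgeR adjusted p = 0.00088 and 0.00071). *Ahrr* was lower without overlap too, at -1.49 ± 0.45 and -2.39 ± 0.46, but did not pass after adjustment (edgeR adjusted p = 0.395 and 0.137). The 9 AT2 marker genes summed to between 4342 and 8820 CPM per library, with *Sftpc* itself between 3086 and 6492 CPM. The 8 markers of airway secretory cells reached 3983 to 8155 CPM, so RNA of both was present. Nearly all of the airway sum was *Scgb1a1*, at 3959 to 8069 CPM, and the next highest of these markers, *Bpifa1*, had a mean of 72.3 CPM. The replicate 1 libraries of WT mice stood apart, with *Bpifa1*, an airway secretory gene, at 0.347 and 0.311 CPM against 30.0 CPM or more in the other libraries, and with the highest sums of 8 leukocyte markers, 211 and 190 CPM. These sums were 164 and 154 CPM in replicate 1 of KO mice and 7.32 to 59.8 CPM in the rest. All results for the 10 genes were therefore also computed without both replicate 1 libraries of WT mice.

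The members spanned more than 3 orders of magnitude in level per length. *Lyz2* was the highest at a mean of 2860 FPKM over the 12 libraries, followed by *Slpi* at 274 FPKM, *Lyz1* at 217 FPKM, *Chil1* at 87.8 FPKM and *Lcn2* at 22.9 FPKM. *S100a9* at 10.4 FPKM, *S100a8* at 7.30 FPKM, *Pglyrp1* at 3.17 FPKM, *Ltf* at 2.21 FPKM and *Saa3* at 0.612 FPKM were lower. *Lyz2* stood above *Slpi*, *Lyz1* above *Chil1* and *Chil1* above *Lcn2* in all 12 libraries. The order of *Slpi* and *Lyz1* turned with the treatment, with *Slpi* below *Lyz1* in all 6 PBS libraries and above it in all 6 CRE libraries. *Lcn2* stood above *S100a9* in 3 of 6 PBS and in 6 of 6 CRE libraries. Neither of these pairs differed beyond its spread over the 12 libraries, nor did *S100a9* and *S100a8*, *S100a8* and *Pglyrp1*, or *Pglyrp1* and *Ltf*, whose mean log2 ratios were smaller than their SD over the libraries. *Ltf* stood above *Saa3* in 11 of 12 libraries. The lysozymes share sequence, their transcripts (Lyz1-201 and Lyz2-201 of GENCODE M21) being 92.0% identical. 34.2% of the 31-base words of the *Lyz1* transcript also occurred in that of *Lyz2*, so the split of counts between these genes is uncertain.

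**Figure D1:**
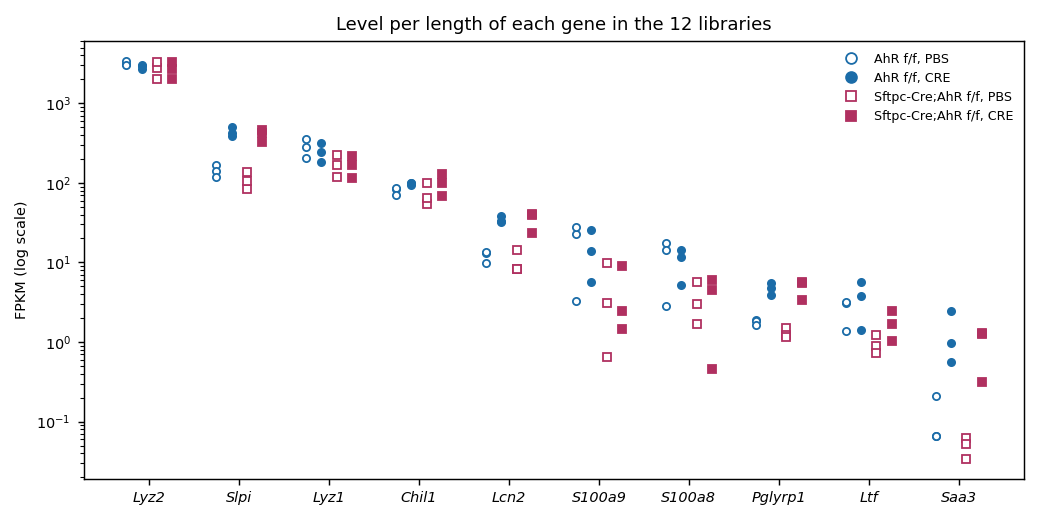
FPKM of each gene in the 12 libraries on a log axis, with genes ordered by their mean, circles for WT (AhR f/f), squares for KO (Sftpc-Cre;AhR f/f), open symbols for PBS and filled symbols for CRE. Lyz2 lies between 2020 and 3438 FPKM in all libraries, and Saa3, Lcn2, Slpi and Pglyrp1 lie higher with CRE than with PBS in both genotypes.

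CRE raised *Slpi* and *Pglyrp1* in WT cells, and *Slpi*, *Pglyrp1* and *Lcn2* in KO cells, by edgeR's quasi-likelihood test at a Benjamini-Hochberg adjusted p of 0.05. These were 2 and 3 of the 10 genes, where 0.233% and 0.262% of all 20612 genes tested passed in either direction (0.218% and 0.228% upward). Averaged over the genotypes, 4 of the 10 genes rose, *Saa3* being the fourth, against 0.864% of all genes, and none of the 10 fell. The median log2 fold change of the 10 genes was 0.40 in WT and 0.67 in KO cells, beside -0.00118 and -0.00265 over all genes tested. The 10 genes were chosen with earlier results of these data known, so the shares of all genes, here and below, are description and do not test the set. By the study's own rule, an unadjusted limma-trend p of 0.05 and a log2 change of 0.5, *Lcn2*, *Pglyrp1*, *Saa3* and *Slpi* rose in each genotype, 4 of the 10 genes, against 2.4% and 1.84% of all genes.

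**Figure D2:**
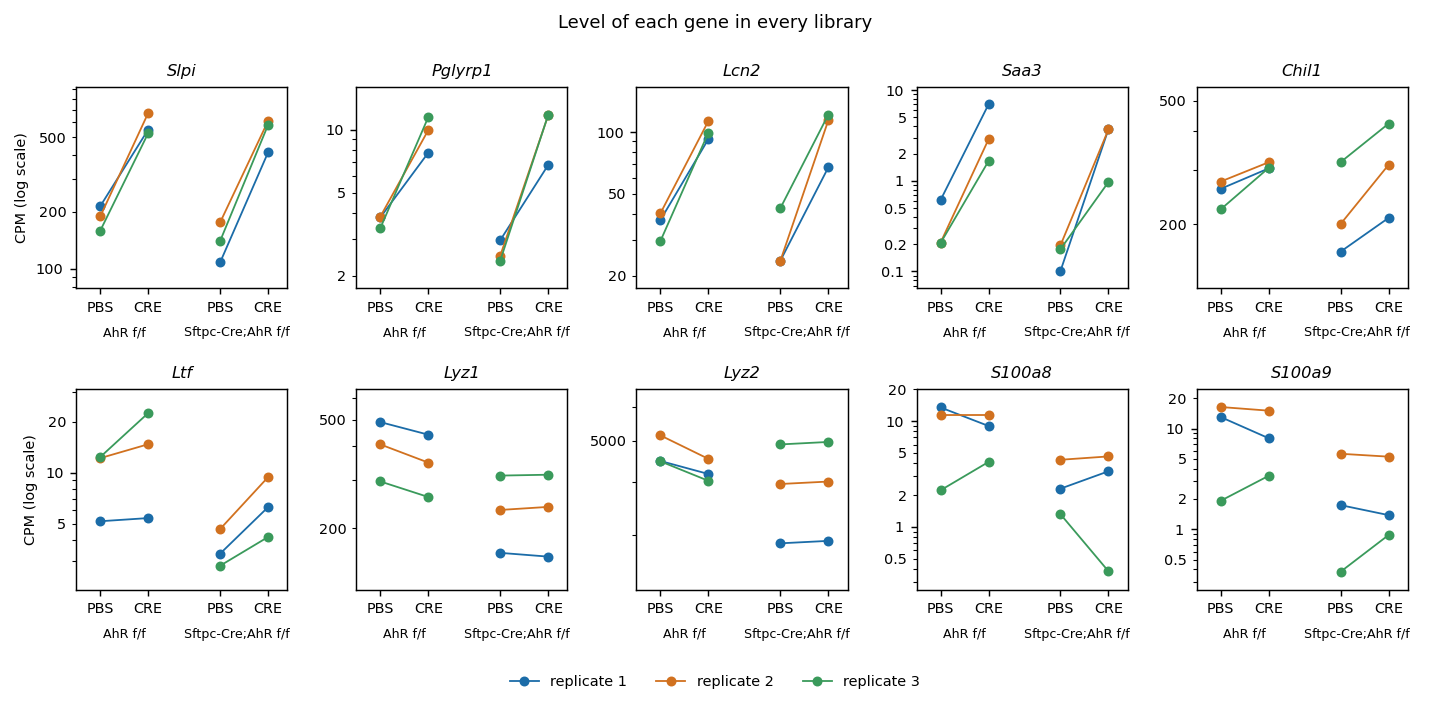
CPM on a log axis of the 10 genes in every library, with PBS and CRE side by side in WT (AhR f/f) and KO (Sftpc-Cre;AhR f/f) and lines joining libraries of the same replicate number. Slpi, Pglyrp1, Lcn2 and Saa3 rise along all 6 lines, whereas S100a8, S100a9 and the lysozymes rise along some lines and fall along others.

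*Slpi* (ENSMUSG00000017002, chromosome 2, 164354070 to 164389095) is the protease inhibitor of the set and rose with the smallest adjusted p. It had 214, 189 and 159 CPM with PBS and 548, 671 and 524 CPM with CRE in WT cells. KO cells had 108, 176 and 140 CPM with PBS and 415, 609 and 581 CPM with CRE. Every CRE library stood above every PBS library of its genotype, and same-numbered libraries differed 2.56-fold to 4.14-fold. The log2 fold change was 1.63 ± 0.20 (SE, n = 3 against 3, edgeR adjusted p = 0.0090) in WT and 1.92 ± 0.20 (n = 3 against 3, edgeR adjusted p = 0.0045) in KO cells. Its call in WT cells was lost without PBS replicate 2 (edgeR adjusted p = 0.0595), without PBS replicate 3 (0.0603) and without both replicate 1 libraries (0.05002). The *Slpi* locus also contains *Mir7678* on the same strand, which had 1 to 7 counts per library.

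*Pglyrp1* (ENSMUSG00000030413, chromosome 7, 18871331 to 18890459), which binds bacterial cell walls, was low but separated well. It had 3.80, 3.83 and 3.38 CPM with PBS and 7.78, 9.99 and 11.5 CPM with CRE in WT cells. KO cells had 2.96, 2.49 and 2.36 CPM with PBS and 6.79, 11.8 and 11.8 CPM with CRE. CRE libraries lay above PBS libraries in both genotypes without overlap. The log2 fold change was 1.41 ± 0.24 (SE, n = 3 against 3, edgeR adjusted p = 0.0455) in WT and 1.96 ± 0.24 (n = 3 against 3, edgeR adjusted p = 0.0083) in KO cells. In WT cells the call was held in 2 of 12 fits that left out 1 library, those without CRE replicate 1 of either genotype, and edgeR adjusted p over these fits ranged from 0.0147 to 0.226. In KO cells it was lost only without PBS replicate 2 (edgeR adjusted p = 0.0524) among these fits, and without both WT replicate 1 libraries the WT value did not pass either (0.121).

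*Lcn2* (ENSMUSG00000026822, chromosome 2, 32384633 to 32388252), which withholds siderophore-bound iron from bacteria, had 37.3, 40.3 and 29.5 CPM with PBS and 92.5, 113 and 99.4 CPM with CRE in WT cells. KO cells had 23.7, 23.7 and 42.7 CPM with PBS and 67.4, 114 and 122 CPM with CRE. The groups did not overlap in either genotype, and same-numbered libraries differed 2.48-fold to 4.83-fold. The log2 fold change was 1.51 ± 0.27 (SE, n = 3 against 3), short of the threshold at an edgeR adjusted p of 0.0658, in WT and 1.75 ± 0.27 (n = 3 against 3, edgeR adjusted p = 0.0265) in KO cells. In the latter the call was lost in 5 of 12 fits that left out 1 library (KO PBS replicates 1 and 2, CRE replicates 2 and 3, and WT CRE replicate 3), where edgeR adjusted p reached 0.120, and without both WT replicate 1 libraries (0.0675). In WT cells it passed in 2 of these 12 fits, without KO PBS replicate 3 (0.0296) or CRE replicate 1 (0.0296).

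*Saa3* (ENSMUSG00000040026, chromosome 7, 46711998 to 46715700), the acute-phase apolipoprotein of the set, was nearly silent with PBS and had the largest fold change of the 10 genes. It had 0.614, 0.208 and 0.206 CPM (46, 14 and 16 counts) with PBS and 6.97, 2.87 and 1.65 CPM with CRE in WT cells. KO cells had 0.102, 0.195 and 0.176 CPM (8, 16 and 13 counts) with PBS and 3.72, 3.69 and 0.970 CPM with CRE. Groups did not overlap, but same-numbered libraries differed 5.50-fold to 36.7-fold, the widest range of any member. The log2 fold change was 3.48 ± 0.72 (SE, n = 3 against 3, edgeR adjusted p = 0.117) in WT and 4.13 ± 0.75 (n = 3 against 3, edgeR adjusted p = 0.0669) in KO cells, neither past the threshold. It passed in KO cells without WT CRE replicate 1 (edgeR adjusted p = 0.0465) and without both WT replicate 1 libraries (0.0302), and averaged over genotypes the increase was 3.80 ± 0.52 (n = 6 against 6, edgeR adjusted p = 0.0057).

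Libraries of the same number deviated together in PBS and CRE of each genotype, so the fit with the replicate number as a block within genotype bears on these comparisons, and it called 3.63% of all genes in WT and 2.13% in KO cells. In this paired fit all of *Slpi*, *Pglyrp1*, *Lcn2* and *Saa3* rose in both genotypes. *Lcn2* rose by 1.52 ± 0.16 (SE, log2, edgeR adjusted p = 0.0065) and *Saa3* by 3.43 ± 0.47 (edgeR adjusted p = 0.0161) in WT cells, and *Saa3* rose by 3.96 ± 0.50 (edgeR adjusted p = 0.0139) in KO cells. Of the 10 genes, 6 were called in WT and 5 in KO cells, the others being the lysozymes in the former and *Chil1* in the latter.

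*Chil1* (ENSMUSG00000064246, chromosome 1, 134182176 to 134190181), the chitinase-like protein, was an abundant gene with a small difference. It had 260, 274 and 223 CPM with PBS and 303, 317 and 304 CPM with CRE in WT cells, where the groups did not overlap. KO cells had 163, 200.02 and 317 CPM with PBS and 209, 311 and 422 CPM with CRE, where they did. CRE exceeded PBS in all 6 same-numbered pairs by 1.15-fold to 1.55-fold. The log2 fold change was 0.29 ± 0.26 (SE) and 0.47 ± 0.26 (edgeR adjusted p = 0.836 and 0.856), and with the replicate block 0.29 ± 0.07 (edgeR adjusted p = 0.0754) and 0.47 ± 0.07 (edgeR adjusted p = 0.0231).

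*Ltf* (ENSMUSG00000032496, chromosome 9, 111019271 to 111042767), lactoferrin, had 5.16, 12.2 and 12.4 CPM with PBS and 5.39, 14.7 and 22.5 CPM with CRE in WT cells. KO cells had 3.32, 4.65 and 2.82 CPM with PBS and 6.26, 9.41 and 4.17 CPM with CRE. CRE exceeded PBS in all 6 same-numbered pairs, by 1.04-fold to 2.03-fold, but the groups overlapped in both genotypes. Its log2 fold change of 0.52 ± 0.50 (SE) in WT and 0.88 ± 0.51 in KO cells did not pass (edgeR adjusted p = 0.857 and 0.873). Averaged over genotypes with the replicate block it rose by 0.62 ± 0.12 (edgeR adjusted p = 0.0314), as did *Chil1* by 0.38 ± 0.05 (edgeR adjusted p = 0.0063), beside 6.59% of all genes called by that fit.

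With *Chil1* included, CRE libraries stood above PBS libraries without overlap for 5 of the 10 genes in WT cells, where 8.82% of all genes did. In KO cells this held for *Slpi*, *Pglyrp1*, *Lcn2* and *Saa3*, 4 of the 10 genes, against 6.49% of all genes.

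The lysozyme genes lie side by side on chromosome 10, 5475 bases apart, *Lyz2* (ENSMUSG00000069516) at 117277331 to 117282321 and *Lyz1* (ENSMUSG00000069515) at 117287797 to 117292868. *Lyz2*, the form known from macrophages and AT2 cells, had 4479, 5148 and 4470 CPM with PBS and 4173, 4531 and 4021 CPM with CRE in WT cells. KO cells had 2862, 3952 and 4902 CPM with PBS and 2900, 4005 and 4968 CPM with CRE. In KO cells the libraries of one number thus lay closer together than those of one treatment, which did not hold in WT cells. *Lyz1*, best known from Paneth cells, had 491, 406 and 297 CPM with PBS and 441, 348 and 260 CPM with CRE in WT cells. KO cells had 162, 233 and 312 CPM with PBS and 157, 239.5 and 314 CPM with CRE. Neither gene passed the test for CRE in either genotype (log2 fold change from -0.19 to 0.02, edgeR adjusted p from 0.930 to 1). With the replicate block both fell slightly in WT cells, *Lyz1* by -0.19 ± 0.04 (SE, log2, edgeR adjusted p = 0.0410) and *Lyz2* by -0.15 ± 0.02 (edgeR adjusted p = 0.0239). In KO cells the paired values were 0.00072 ± 0.04 for *Lyz1* and 0.02 ± 0.02 for *Lyz2*, which did not pass.

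*S100a8* (ENSMUSG00000056054, chromosome 3, 90668978 to 90670035) and *S100a9* (ENSMUSG00000056071, chromosome 3, 90692632 to 90695721) lie 22596 bases apart, and *S100a9* is a gene the study singled out from these libraries. *S100a8* had 13.4, 11.4 and 2.22 CPM with PBS and 8.99, 11.4 and 4.11 CPM with CRE in WT cells. KO cells had 2.30, 4.31 and 1.32 CPM with PBS and 3.35, 4.63 and 0.380 CPM with CRE. *S100a9* had 13.01, 16.3 and 1.92 CPM with PBS and 8.02, 15.0 and 3.40 CPM with CRE in WT cells. KO cells had 1.74, 5.62 and 0.380 CPM with PBS and 1.38, 5.26 and 0.878 CPM with CRE. In both genes the groups overlapped, and replicate 3 was the lowest library in every group. The CRE log2 fold changes lay between -0.24 and 0.08 with SE of 0.83 to 1.02 (edgeR adjusted p from 0.994 to 1), with a sign that turned under several alternatives, and the 95% intervals, such as -2.48 to 2.00 for *S100a9* in WT cells, leave room for large changes in either direction.

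The calprotectin genes were lowest in libraries where neutrophil genes were also low. The 12 neutrophil markers summed to 50.5, 42.6 and 7.33 CPM with PBS and 45.6, 46.4 and 16.1 CPM with CRE in WT cells, and to 17.6, 19.1 and 6.15 CPM with PBS and 24.1, 19.8 and 9.26 CPM with CRE in KO cells. *Ngp*, neutrophilic granule protein, ranged from 1.84 to 16.9 CPM in WT and from 0 to 4.65 CPM in KO libraries. *Elane*, neutrophil elastase, ranged from 0.580 to 3.04 CPM and from 0.381 to 1.64 CPM. The defining marker *Ly6g* had 0 to 24 counts per library, and 0 in 3 of the 12. None of the 12 markers passed edgeR's test for CRE or for genotype, and 0 had an unadjusted p under 0.05 for CRE in either genotype. Between genotypes 1 of 12 was under that p with PBS (against 8.37% of all genes) and 1 of 12 with CRE (against 5.95%). Averaged over treatments 4 of 12 were, against 9.93% of all genes. All 12 had a negative log2 fold change for genotype with PBS (median -1.11) and with CRE (median -1.03). In bulk RNA, fewer cells of a type and less RNA per cell cannot be told apart, and the part of neutrophil RNA in the levels of *S100a8* and *S100a9* was not tested.

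**Figure D3:**
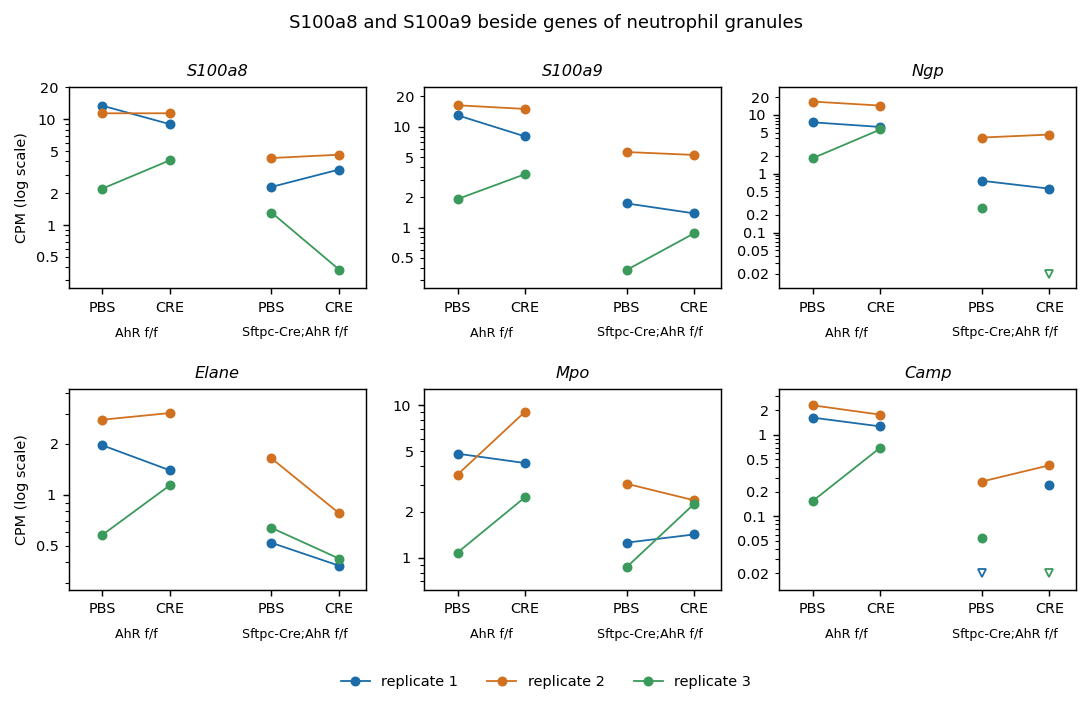
CPM on a log axis of S100a8, S100a9 and 4 neutrophil granule genes in every library, with lines joining libraries of the same replicate number and open triangles for libraries with 0 counts, drawn at an arbitrary low height. Replicate 2 of KO mice lies above replicates 1 and 3 for S100a8, S100a9 and Ngp with both treatments.

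By the rule of naming the 5 genes whose log2 CPM followed *S100a9* most closely over the 12 libraries, among 14542 genes, these were *Tmem19* (Pearson's r 0.926), *Prss34* (0.907), *S100a8* (0.891), *Wbp1l* (0.889) and *Elane* (0.877). *Prss34* is a serine protease of basophils and mast cells, and *Elane* is neutrophil elastase. For *Lcn2* they were *Akr1b8* (0.974), *Gtse1* (0.973), *Akr1c19* (0.969), *1500015A07Rik* (0.968) and *Pgd* (0.966), where *Akr1b8* and *Akr1c19* are aldo-keto reductases and *Pgd* is an enzyme of the pentose phosphate pathway. Within the set, *Slpi* correlated with *Lcn2* (0.955), *Pglyrp1* (0.955) and *Saa3* (0.914), and *Lyz1* with *Lyz2* (0.820), whereas *Lcn2* and *S100a8* did not vary together (-0.042). These values describe the 12 libraries, which share the CRE treatment and the replicate numbers as sources of variation, and no test was made.

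Between genotypes, none of the 10 genes passed edgeR's test with PBS, with CRE or averaged over both, where 0.15%, 0.17% and 0.631% of all genes did. With an additive replicate block 0 of 10 passed with PBS, against 0.344% of all genes. Averaged over treatments this block called *S100a8* (-1.75 ± 0.31 (SE, log2), edgeR adjusted p = 0.0382) and *S100a9* (-2.11 ± 0.30, edgeR adjusted p = 0.0136), 2 of 10 genes, against 1.08% of all genes. Whether equal numbers pair libraries across genotypes is weakly supported, since with PBS same-numbered libraries correlated at 0.11 to 0.43 and differently numbered ones at up to 0.279, and with CRE the former were as low as -0.0092. At an unadjusted edgeR p of 0.05, *Lyz1* and *Ltf* were lower with PBS in the libraries labelled KO (2 of 10 genes, against 8.37% of all genes), 0 of 10 passed with CRE (against 5.95%) and 4 of 10, with *S100a8* and *S100a9*, passed on average (against 9.93%). DESeq2 called 0 of the 10 genes with PBS (against 234 of 20612 genes) and 0 with CRE (against 171). On average over treatments it called *Ltf* (1 of 10 genes, against 2.53% of all genes, log2 fold change -1.28, DESeq2 adjusted p = 0.0112). All 10 log2 fold changes were negative with PBS, with a median of -0.62 beside -0.00103 over all genes, and 8 of 10 were negative with CRE, with a median of -0.29 beside -0.00337. The direction did not hold for every gene and fit, since *Chil1* turned positive with PBS when the PBS library of KO replicate 1 was left out (0.04), and with CRE the sign turned in some fit that left out 1 library for *Lcn2*, *Lyz2*, *Pglyrp1*, *Saa3*, *Slpi* and *Chil1*.

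**Figure D4:**
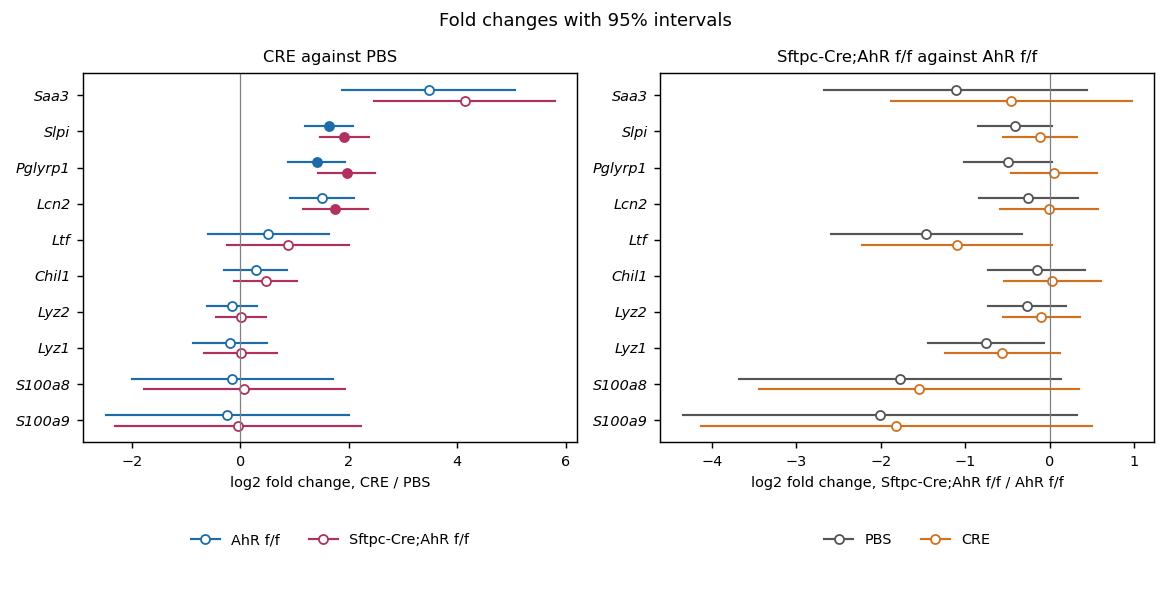
Log2 fold changes of the 10 genes with 95% intervals, for CRE against PBS in each genotype (left) and for KO (Sftpc-Cre;AhR f/f) against WT (AhR f/f) with each treatment (right), where filled points passed an edgeR adjusted p of 0.05. Saa3, Slpi, Pglyrp1 and Lcn2 lie to the right of 0 with CRE, and no point in the right panel is filled.

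*Ltf* had the smallest p between genotypes. Its 3 PBS libraries of WT mice at 5.16 to 12.4 CPM lay above the 3 of KO mice at 2.82 to 4.65 CPM. The difference on the log2 scale was -1.46 ± 0.51 (SE, n = 3 against 3, edgeR adjusted p = 0.489). With CRE the change was -1.10 ± 0.51 (edgeR adjusted p = 0.847), and the groups overlapped. Averaged over treatments it was -1.28 ± 0.36 (edgeR adjusted p = 0.224), and it passed without both WT replicate 1 libraries, at -1.63 (edgeR adjusted p = 0.0274), when 1 of the 10 genes was called. *Pglyrp1* and *Saa3* also did not overlap with PBS, at -0.50 ± 0.23 and -1.11 ± 0.70 (edgeR adjusted p = 0.612 and 0.742), so that 3 of the 10 genes were lower without overlap, against 7.38% of all genes. With CRE no such separation was left, *Pglyrp1* being at 0.05 ± 0.23 and *Saa3* at -0.46 ± 0.65. By the study's rule as recomputed here, *Lyz1* and *Ltf* were lower with PBS (2 of 10 genes, against 1.76%), none with CRE (against 3.42%), and *S100a8*, *S100a9*, *Lyz1* and *Ltf* on average (4 of 10 genes, against 1.67%). The paper itself lists *S100a9* among the autophagy genes lower in CRE-treated KO than WT cells, and reports lower *S100a9* by RT-PCR. In the recomputed limma-trend fit *S100a9* with CRE was at -1.98 (log2), with an unadjusted limma-trend p of 0.0950.

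*S100a8* and *S100a9* had the largest genotype values of the set and also the widest intervals. *S100a9* was at -2.01 ± 1.05 (SE, log2, 95% interval -4.34 to 0.32, edgeR adjusted p = 0.656) with PBS and at -1.81 ± 1.05 (edgeR adjusted p = 0.936) with CRE. *S100a8* was at -1.77 ± 0.86 (edgeR adjusted p = 0.628) and -1.55 ± 0.86 (edgeR adjusted p = 0.925). *Elane* and *Camp*, a neutrophil antimicrobial peptide, were at -0.92 and -3.63 with PBS and at -1.82 and -2.48 with CRE (edgeR adjusted p from 0.531 to 0.925), and the part of these cells in the *S100a8* and *S100a9* values was not tested. *Lyz1* was at -0.75 ± 0.31 with PBS (edgeR adjusted p = 0.541), where the groups overlapped, at 297 to 491 CPM in WT and 162 to 312 CPM in KO cells.

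No difference between genotypes in the response to CRE passed the test of the interaction term. In edgeR 0 of the 10 genes and 0% of all genes passed, and 0 of 10 had an unadjusted p under 0.05 (against 3.7% of all genes). DESeq2 called 0 of 10 (against 23 of 20612 genes), and the study's rule called 0 of 10 (against 2.3%). The interaction was 0.24 ± 0.37 (SE, log2, 95% interval -0.58 to 1.06) for *Lcn2*, 0.29 ± 0.28 (-0.33 to 0.90) for *Slpi*, 0.55 ± 0.33 (-0.18 to 1.27) for *Pglyrp1* and 0.66 ± 0.94 (-1.43 to 2.75) for *Saa3*. These intervals do not show equal responses: for *Lcn2* and *Slpi* a difference of up to about 1 log2 unit, and for *Saa3* of more than 2, was within them. The call of *Lcn2* in 1 genotype and not in the other was thus not accompanied by a tested difference between them. All 10 interaction values were positive, with a median of 0.23 beside 0.0052 over all genes, and for several genes the sign turned when 1 library was left out. They use the same PBS libraries as the genotype values with PBS, which were all negative, and the shared direction was not tested.

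Of 18 genes acting upstream of these proteins (receptors and adaptors of the IL-17, IL-1, IL-6 and IL-22 pathways, NF-kB and C/EBP factors and their regulators), 2 rose with CRE in each genotype and none fell, with a median log2 fold change of 0.13 and 0.19. *Nfkbiz*, which encodes IkB-zeta, a nuclear co-activator of NF-kB target genes, had 26.8, 18.6 and 19.0 CPM with PBS and 77.4, 68.2 and 65.4 CPM with CRE in WT cells. Its log2 fold change was 1.71 ± 0.19 (SE, n = 3 against 3, edgeR adjusted p = 0.0043) there and 1.35 ± 0.19 (n = 3 against 3, edgeR adjusted p = 0.0148) in KO cells. *Zc3h12a*, an endonuclease that degrades inflammatory mRNAs, had 9.50, 6.88 and 6.22 CPM with PBS and 31.7, 44.2 and 40.3 CPM with CRE in WT cells. It rose by 2.36 ± 0.25 (log2, edgeR adjusted p = 0.0038) and by 1.97 ± 0.25 (edgeR adjusted p = 0.0083). *Il6st*, the shared receptor subunit gp130 and the gene of the list with the highest mean CPM, which is not a level per length, was at 1.07 ± 0.27 and 0.49 ± 0.27 (edgeR adjusted p = 0.197 and 0.856). In the paired fit 3 of 18 rose in each genotype, *Nfkb1*, an NF-kB subunit named after its value was seen, being the third, at 0.32 ± 0.06 (edgeR adjusted p = 0.0333) and 0.33 ± 0.06 (edgeR adjusted p = 0.0355).

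Of 13 receptors and partners of these proteins that were tested, out of 14 listed, 1 rose with CRE in each genotype. *Cd36*, a scavenger receptor, had 139, 134 and 112 CPM with PBS and 328, 323 and 293 CPM with CRE in WT cells, and it rose by 1.30 ± 0.19 (SE, log2, edgeR adjusted p = 0.0207) there and by 1.16 ± 0.18 (edgeR adjusted p = 0.0315) in KO cells. *Ager*, the receptor RAGE that binds S100 proteins and is also a marker of type I alveolar cells, fell on average over the genotypes by -0.83 ± 0.17 (edgeR adjusted p = 0.0472). With the replicate block 3 rose and 2 fell in WT cells, and 2 rose and 1 fell in KO cells. Among those that rose in WT cells were *Tlr2* and *Tlr4*, receptors for bacterial ligands named after their values were seen, at 0.57 ± 0.07 (edgeR adjusted p = 0.0120) and 0.47 ± 0.08 (edgeR adjusted p = 0.0288). *Anxa2*, an annexin and the gene of the list with the highest mean CPM, was at -0.22 ± 0.12 and -0.08 ± 0.12 (edgeR adjusted p = 0.604 and 1) without the block, and it fell by -0.22 ± 0.03 (edgeR adjusted p = 0.0088) with the block in WT cells.

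None of the other secreted defence, acute-phase, S100 and chitinase-like genes passed edgeR's test in any comparison. Counts at an unadjusted p are for CRE, for which the share of all genes is not given here, so they cannot be set against it. Of 17 other antimicrobial genes 11 were tested and 0 passed for CRE in either genotype (at an unadjusted p of 0.05, 0 and 1), with a median log2 fold change of 0.0079 and 0.12 for CRE. *Sftpa1*, surfactant protein A and the highest of them in mean CPM, was at -0.14 ± 0.29 (SE) and 0.12 ± 0.29 (edgeR adjusted p = 0.968 and 1). With the replicate block 1 of the 11 rose in KO cells and none in WT cells, *Sftpd*, surfactant protein D, named after its value was seen, at 0.38 ± 0.04 (edgeR adjusted p = 0.0094). Of 20 other acute-phase genes 11 were tested and 0 passed (unadjusted, 2 and 0), though 10 of 11 and 9 of 11 had a positive value and the median was 0.61 and 0.40. *Cp*, ceruloplasmin and the highest of these in mean CPM, had 67.1, 68.4 and 87.2 CPM with PBS and 94.7, 115 and 130 CPM with CRE in WT cells. With the replicate block 2 of the 11 rose in each genotype, *Cp* at 0.61 ± 0.06 (edgeR adjusted p = 0.0038) and 0.40 ± 0.06 (edgeR adjusted p = 0.0189), and *Hp*, haptoglobin, named after its value was seen, at 0.37 ± 0.07 (edgeR adjusted p = 0.0464) and 0.42 ± 0.07 (edgeR adjusted p = 0.0376). *Saa1* and *Saa2*, relatives of *Saa3*, had at most 4 counts in any library and were not tested. Of 12 other S100 genes 11 were tested and 0 passed (unadjusted, 5 and 1), with a median of -0.23 and -0.07. With the block 4 fell in WT cells and 1 in KO cells, where *S100a6*, the highest in mean CPM, fell by -0.43 ± 0.04 (edgeR adjusted p = 0.0032) and by -0.22 ± 0.04 (edgeR adjusted p = 0.0358). Of 7 other chitinase-like genes 4 were tested and 0 passed (unadjusted, 1 and 0), and *Chia1*, acidic chitinase and the highest of them in mean CPM, was at 0.01 ± 0.30 and 0.11 ± 0.30 (edgeR adjusted p = 1 in both).

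Markers of other cells were set beside the CRE response of the 10 genes. Of 12 neutrophil, 14 macrophage, 8 leukocyte and 8 airway secretory markers, 0 passed edgeR's test for CRE in either genotype, and at an unadjusted p of 0.05 these were 0, 4, 0 and 1 in WT and 0, 4, 0 and 0 in KO cells. The share of all genes past that unadjusted p with CRE is not given here, so these counts cannot be set against it. The summed macrophage markers lay between 38.0 and 195 CPM with PBS and between 38.7 and 175 CPM with CRE in WT cells, and between 53.1 and 148 CPM and between 47.8 and 124 CPM in KO cells. The summed airway secretory markers lay between 4708 and 7857 CPM with PBS and between 3983 and 6366 CPM with CRE in WT cells, and between 4876 and 8155 CPM and between 4345 and 6736 CPM in KO cells. These airway sums were nearly all *Scgb1a1*. With CRE, 3 of the 14 macrophage markers in WT and 2 in KO cells had no count in any library. The sums were higher with CRE in 5 of 6 same-numbered pairs for neutrophil markers (0.905-fold to 2.19-fold), in 1 of 6 for macrophage markers and in 0 of 6 for leukocyte and for airway secretory markers, whereas *Slpi*, *Pglyrp1*, *Lcn2* and *Saa3* were higher in 6 of 6. In the paired fit *Adgre1*, a macrophage gene, rose in both genotypes and *Ear2* and *Itgax* fell, *Mmp8*, a neutrophil collagenase, rose in WT cells and *Scgb1a1*, the club cell secretoglobin, fell there. The part of these cell types in the CRE response of the 10 genes was not tested.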

How the data were processed

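RNA from cultured AT2 cells was sequenced in 12 libraries (stranded mRNA kit), 3 per group. Per the submitters' processing notes and the methods, the authors aligned reads with STAR 2.7.2b to GRCm38 and quantified genes with Partek and Salmon. The deposited values were whole-number counts per gene and FPKM, in which the authors wrote 0.0001 where the count was 0. How Salmon's estimates became whole numbers is not given in the sources used here. The table held 55450 genes, all matched to GENCODE M21 by identifier, and the total counts were 68878065 to 80935797 per library. These depths cover counting error only.

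Counts were tested with edgeR 4.0.16 in R 4.3.3 (quasi-likelihood test, TMM, filterByExpr at a minimum count of 10), in 1 fit of 4 group means over the 12 libraries, with Benjamini-Hochberg adjustment over 20612 genes at 0.05. CPM are edgeR values on TMM library sizes, SE is the fold change divided by the root of F, and intervals are 95%. The study's rule (limma-trend 3.58.1, prior count 2, unadjusted p of 0.05, log2 change of 0.5), DESeq2 1.42.0, other filters and scalings, replicate blocks and fits without single libraries were alternatives. The edgeR script was tested on simulated data. FPKM served only to rank levels. Columns of the authors' own comparisons were not used.

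Deviations from group means over 12445 genes correlated between same-numbered PBS and CRE libraries (0.404 to 0.742 in WT, 0.321 to 0.619 in KO). Between genotypes, same-numbered libraries were at 0.11 to 0.43 with PBS, with up to 0.279 for different numbers. With CRE they were at -0.0092 to 0.406, with up to 0.402 for different numbers. The pairing comes from these values, since the labels do not say what a number marks.

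The 10 genes and the lists were chosen with earlier results of these data known. All 10 were named. From the 6 lists of related genes, others were named if called in any of 7 contrasts or highest in mean CPM, and for *S100a9* and *Lcn2* the 5 most correlated genes. Cell type markers, and genes called with the block alone, were named after their values were seen. Promoters came from RefSeq (GRCm38.p6).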

Additional observations from a re-analysis of the deposited data

Results flagged for a closer look

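*Lyz2* was flagged because its CRE and PBS libraries moved in opposite directions in the genotypes. CRE over PBS was 0.932, 0.880 and 0.8996 in the same-numbered WT pairs and 1.01 in each of the 3 KO pairs, so that it was lower in 3 of 3 and higher in 3 of 3. The difference of the log2 fold changes was 0.167 with an SE of 0.29 (95% interval -0.48 to 0.82), and it did not pass the test of the interaction (edgeR adjusted p = 1). With the replicate block within genotype it was 0.17 with an SE of 0.03 and an unadjusted edgeR p of 0.0014, which did not pass after adjustment (0.494). With library size alone as scaling, *Lyz2* was lower with CRE in KO cells too (log2 fold change -0.0076).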

How the results depend on the processing

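The number of the 10 genes called with CRE in WT cells was 2 (48 of all genes), and 4 with DESeq2 (414), 4 by the study's rule (848), 1 without a filter (44), 4 with an additive replicate block (137), 6 with the block within genotype (748), 0 without both WT replicate 1 libraries (29, chosen after seeing the data) and 0 to 3 when leaving out 1 library, with 0 without WT PBS replicate 2 (20) or 3 (19). In KO cells it was 3 (54), and 4 with DESeq2 (255), 0 with only the 6 libraries compared (13), 5 with the block within genotype (439) and 1 to 4 when leaving out 1 library, with 1 without its PBS replicate 2 (23). Between genotypes with PBS it was 0 (31), and 2 by the study's rule (846). Averaged over treatments it was 0 (130), and 1 with DESeq2 (522), 4 by the study's rule (847), 2 with the additive block (223), where *S100a8* was at -1.75 and *S100a9* at -2.11, and 1 without both replicate 1 libraries (110). The 4 genes called with CRE averaged over genotypes (226) were 4 in each of the 12 fits that left out 1 library and with DESeq2 (743), and 6 with the block (1358). With the additive block *Saa3* was also called with CRE in KO cells (log2 fold change 3.87, edgeR adjusted p = 0.0332), which made 4 of the 10 genes (112). The genes it added in WT cells were *Lcn2* and *Saa3*. Outside these and the calls given in the text, neither block changed a call of the 10 genes. Between genotypes with CRE the additive block called 0 of the 10 genes (55 of all genes). Same-numbered libraries correlated there at -0.0092 to 0.406, so whether equal numbers mark pairs is not settled.

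Signs turned for values near 0. *S100a8* was at 0.10 (limma), 0.10 (additive block), 0.087 (block within genotype) and 0.19 (without both replicate 1 libraries) in WT, and at -0.36, -0.27 and -0.26 (limma, additive block, block within genotype) in KO cells. Its interaction was -0.46, -0.37 and -0.35 under the same 3 and -0.11 without both replicate 1 libraries, where its averaged response was 0.13. *S100a9* was at 0.25, 0.22 and 0.18 (limma, additive block, block within genotype) in KO cells and at 0.12, 0.085 and 0.079 on average, and without both replicate 1 libraries at 0.014 in WT cells and -0.058 in the interaction. In KO cells *Lyz1* was at -0.021 (library size alone) and -0.0035 (filter of 1 CPM in 3 libraries), and *Lyz2* at -0.0076 (library size alone). Between genotypes with CRE, *Chil1* was at -0.028 (limma) and -0.021 (additive block), and without both replicate 1 libraries *Pglyrp1* was at -0.086 and *Saa3* at 0.31. The causes were not tested.

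Leaving out 1 library gave these ranges for values that turned. With CRE in WT cells *S100a8* ranged from -0.60 to 0.26 and *S100a9* from -0.87 to 0.24. In KO cells *S100a8* ranged from -0.49 to 0.63, *S100a9* from -1.19 to 1.24, *Lyz1* from -0.25 to 0.26 and *Lyz2* from -0.18 to 0.22, and on average *S100a8* from -0.32 to 0.24, *S100a9* from -0.72 to 0.50, *Lyz1* from -0.22 to 0.037 and *Lyz2* from -0.16 to 0.034. Between genotypes *Chil1* ranged from -0.48 to 0.036 with PBS, -0.24 to 0.25 with CRE and -0.22 to 0.049 on average. With CRE *Lcn2* ranged from -0.16 to 0.21, *Lyz2* from -0.30 to 0.081, *Pglyrp1* from -0.086 to 0.27, *Saa3* from -0.82 to 0.31 and *Slpi* from -0.21 to 0.035. The interaction ranged for *S100a8* from -0.35 to 0.77, *S100a9* from -0.94 to 1.48, *Lyz1* from -0.065 to 0.45, *Lyz2* from -0.030 to 0.36, *Saa3* from -0.064 to 1.42, *Chil1* from -0.087 to 0.51 and *Ltf* from -0.032 to 0.86. *Saa3* had only 8 to 46 counts per library with PBS, and whether depth limited its values was not tested.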

Other observations

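The ratio of *S100a9* to *S100a8* in FPKM was close within same-numbered WT libraries, at 1.29 with PBS and 1.19 with CRE in replicate 1, 1.91 and 1.75 in replicate 2, and 1.16 and 1.09 in replicate 3. In KO libraries it was 1.01 and 0.549, 1.74 and 1.51, and 0.381 and 3.18, where *S100a9* had as few as 28 counts and *S100a8* as few as 29. Ahead of *S100a8*, the genes that followed *S100a9* most closely over the 12 libraries included *Tmem19*, at a mean of 41.8 CPM and with a Spearman rho of 0.951.

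Markers of type I alveolar cells were lower with CRE in 6 of 6 same-numbered pairs, their sum being 0.704-fold to 0.762-fold that with PBS. Averaged over genotypes, 3 of these 9 markers fell by edgeR's test, where 226 of 20612 genes were called in either direction, 178 of them upward. *Ager* fell by -0.83 (SE 0.17, edgeR adjusted p = 0.0472), *Rtkn2* by -1.28 (SE 0.25, edgeR adjusted p = 0.0404) and *Clic5* by -0.45 (SE 0.08, edgeR adjusted p = 0.0291). These were the same libraries in which *Slpi*, *Pglyrp1*, *Lcn2* and *Saa3* rose. Of the 9 AT2 markers 1 also fell, *Etv5*, an ETS transcription factor of these cells, by -0.47 (SE 0.08, edgeR adjusted p = 0.0185).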
